A study of Dunaliella salina with 4 samples.

Results

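Dunaliella salina is a unicellular green alga without a rigid cell wall that tolerates high salt, and is known for accumulating glycerol against salt stress and β-carotene under strong light. A gene of such an alga can give more than 1 transcript product, for example through alternative splicing or alternative ends, and the balance between products can then differ between conditions even where the total from the gene does not. Counts were given per annotated entry, and each locus tag could have several entries with a numeric suffix. That such entries stand for different products of a locus is inferred only from the number of annotated proteins. The loci described here are those at which the entry with most counts was not the same in deep water as in control cultures. A locus was kept when 1 suffixed entry held the largest share of the locus counts in both deep-water libraries, another entry held it in both control libraries, and the mean share of the deep-water-dominant entry was at least 10 percentage points higher in deep water. Each locus also needed at least 200 normalised counts in every library. By this rule 18 loci with 36 entries were chosen, out of 17872 entries in all and out of 1207 loci with 2 or more suffixed entries past the same floor, or 1.49% of these loci.

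The libraries came from 2 cultures grown in deep water from Sistan and 2 control cultures kept in standard medium with 30 g/L NaCl. All 4 were whole cultures of wild-type vegetative cells, grown at 25 ± 2 °C with 16 h of light and 8 h of dark. The salt content of the deep water is not stated in the labels. They list 4 batches, 1 per library, so batch and library cannot be told apart. Batch can add both to the spread within a group and to the difference between deep water and control. The design names the cultures as biological replicates. Total counts were 127736776 and 149180358 in deep water 1 and 2, and 78109607 and 109813468 in control 1 and 2. Of these, 31831 and 27973 counts in deep water and 53375 and 76550 in control fell on the 36 entries. Fewer transcripts per cell and fewer cells expressing a product cannot be told apart in such bulk libraries.

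The entries followed the annotated products of each locus in number. In the annotation of strain CCAP 19/18 (Dunsal1 v. 2), all 14363 entries without a suffix lay on locus tags with 1 annotated protein, and all 1691 locus tags with suffixed entries had at least 2. The highest suffix never exceeded the number of annotated proteins and equalled it at 1432 of these 1691 locus tags. Each of the 18 loci had 2 annotated proteins and 2 entries, with the suffixes 1 and 2. No source used here says whether suffix 1 is the first protein listed, names the loci or gives their functions. Nor does any say how reads that match both entries of a locus were divided. The split between entries of the same locus is therefore uncertain in every library. A share compares 2 entries without regard to their length, so a share above 50% marks more counts and not necessarily more transcript molecules. Differences in the share of the same entry between libraries do not depend on how the libraries were scaled. Their direction does not depend on length either. Their size in points does, and so does whether a share crosses 50%.

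Even splits were common among loci with 2 entries, which bears on how a dominant entry is read. Of the 1036 such loci past the floor, 39.8% and 36.4% had both entries within 5 points of an even split in deep water 1 and 2, against 43.0% and 55.0% in control 1 and 2. The median share of the larger entry was 58.0% and 58.5% in deep water 1 and 2, and 56.7% and 52.7% in control 1 and 2. Over all 1207 loci, the 2 deep-water libraries disagreed on the dominant entry at 420 loci and the 2 controls at 504. The dominant entry was the same in all 4 libraries at 412 loci. It was the same within each group at 492 loci, and at 80 of these it differed between the groups. The margin of 10 points then left out 62 of the 80. None of the 171 loci with 3 or more entries was kept, although 9 of them were among the 62.

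At the 18 loci, the entry dominant in deep water held a median of 61.3% and 62.9% of the locus counts in deep water 1 and 2, with ranges of 53.2% to 95.8% and 51.1% to 100%. In control 1 and 2 the same entries held medians of 36.8% and 47.2%, with ranges of 0% to 48.0% and 11.7% to 49.7%. The difference in mean share had a median of 24.7 points and ran from 10.7 to 71.1 points. All of these values were used to choose the loci and are given without a test. With 2 entries per locus, a switch of the dominant entry means by construction that the groups do not overlap. Such a lack of overlap was found at 381 of the 1036 loci with 2 entries (36.8%). The 95% Wilson intervals of the shares, which cover counting error only, had half-widths of 0.0955 to 6.60 points. At 14 of the 18 loci both deep-water intervals lay above both control intervals, and at DUNSADRAFT_4801, DUNSADRAFT_3730, DUNSADRAFT_16883 and DUNSADRAFT_14159 they did not. The shares behind these intervals were used to choose the loci, so this count is a description. It was not taken over the other loci, and the intervals leave out the spread between cultures.

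**Figure D1:**
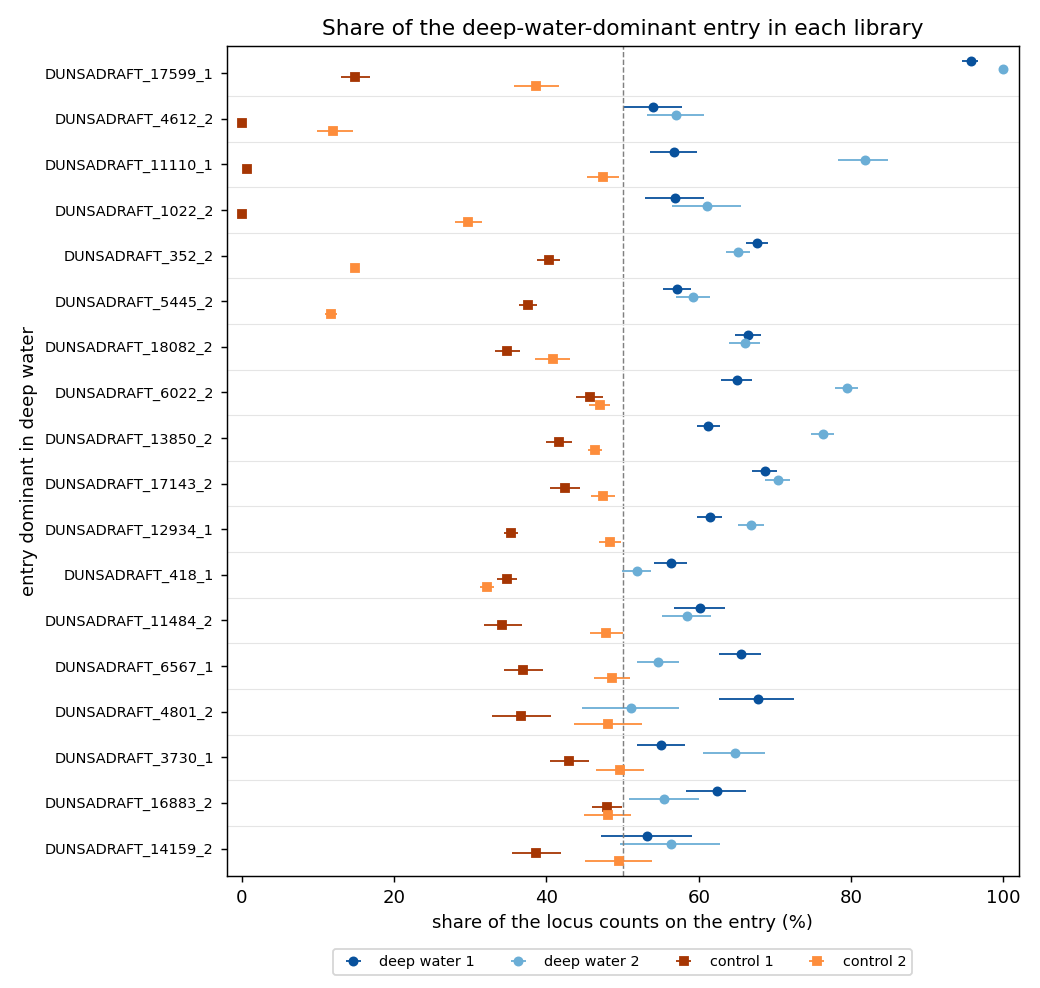
Share of the locus counts on the entry dominant in deep water (x axis, %), for the 18 loci (y axis, by difference in mean share) in each library. Circles are deep-water and squares control libraries, bars are 95% Wilson intervals, and the dashed line marks 50%. Every circle lies right of the line and every square left of it, as the choice of loci requires. Control 2 lies nearer the line than control 1 at 15 loci. Among the 381 loci with 2 entries whose shares did not overlap, control 2 was nearer to deep water at 280.

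The 2 control libraries were often far apart at these loci. The share of the deep-water-dominant entry differed by a median of 4.35 points between the deep-water libraries (0.377 to 25.1) and by 11.6 points between the controls (0.0684 to 46.8). Over all 1036 loci with 2 entries the corresponding medians were 5.62 points in deep water and 5.04 points in control. The spreads at the 18 loci come from the shares used to choose them. As the margin was set on mean shares, an extreme share in a single control adds to both the difference and the control spread. Nothing is read from the distance of these spreads to those over all 1036 loci. Control 2 was the control nearer to deep water at 15 of the 18 loci. It was also the nearer control at 280 of the 381 loci with 2 entries whose shares did not overlap between groups. At 11 of the 18 loci control 2 lay within 5 points of an even split, which in control 1 was so at 2. The gap between the lowest deep-water share and the highest control share was larger than the distance within either pair at 8 loci, DUNSADRAFT_17599, DUNSADRAFT_4612, DUNSADRAFT_18082, DUNSADRAFT_6022, DUNSADRAFT_17143, DUNSADRAFT_12934, DUNSADRAFT_418 and DUNSADRAFT_16883. At the other 10 the spread within a group was as large as the gap or larger.

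**Figure D2:**
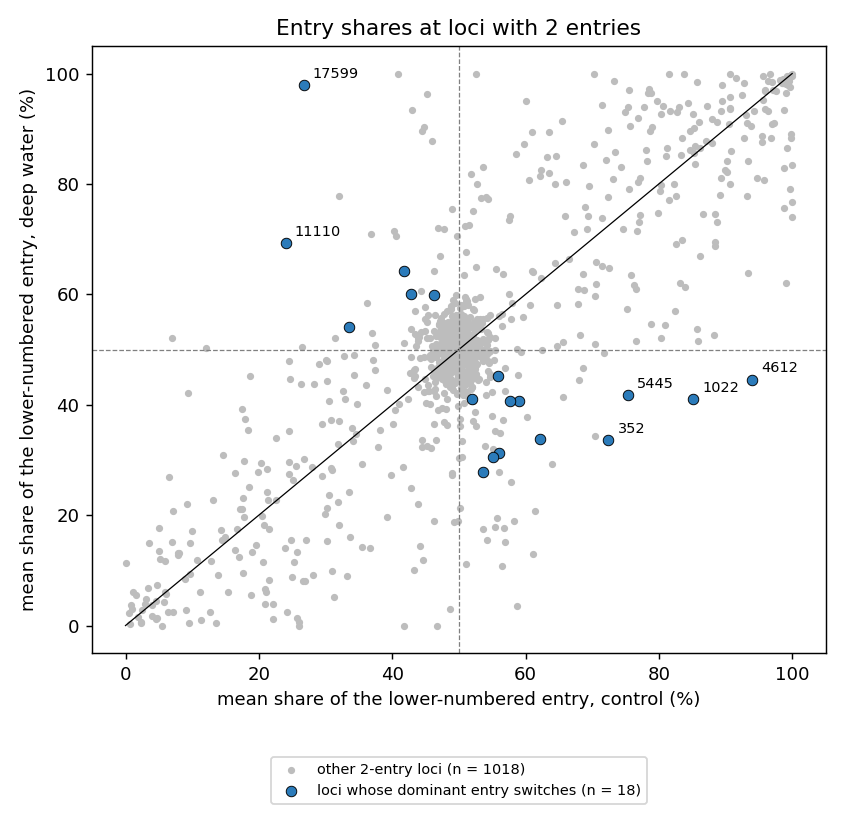
Mean share of the lower-numbered entry in deep water (y axis, %) and in control (x axis, %) for loci with 2 entries and at least 200 normalised counts in every library. Grey points are the 1018 other loci and blue points the 18 loci whose dominant entry switches, of which those with a difference above 30 points carry the number of their locus tag. Most loci crowd around an even split, and grey points in the upper left and lower right quadrants are loci whose replicates did not share a dominant entry or whose difference was under 10 points.

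At 3 loci, both entries were apart between the groups in normalised counts, in opposite directions. This sorting of loci by level, here and below, rests on the scaling of the deposited normalised counts. DUNSADRAFT_17599 had the largest difference of the 18. Its entry DUNSADRAFT_17599_1 held 95.8% and 100% of the locus counts in deep water, against 14.9% and 38.6% in control 1 and 2. It had 1794 and 1875 normalised counts in deep water and 158 and 302 in control. DUNSADRAFT_17599_2 had 79.6 normalised counts in deep water 1 and was listed at 0 in deep water 2, against 903 and 480.3 in the controls. The locus thus went almost wholly to a single entry in deep water, while both entries were present in both controls. Its summed level was also higher in deep water, at 1874 and 1875 normalised counts against 1061 and 783 in control 1 and 2.

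DUNSADRAFT_4612 showed the converse form, with a single dominant entry in control and a nearly even split in deep water. DUNSADRAFT_4612_2 held 54.0% and 57.0% in deep water, against 0% and 12.0% in control 1 and 2. It had 432 and 531 normalised counts in deep water and 0 and 66.8 in control. Its partner DUNSADRAFT_4612_1 had 368 and 401 in deep water, against 1403 and 489 in control. The summed level overlapped between groups, at 800.1 and 933 normalised counts in deep water and 1403 and 555 in control. At DUNSADRAFT_352, the entry DUNSADRAFT_352_2 held 67.6% and 65.1% in deep water, against 40.3% and 14.9% in control 1 and 2. Control 2 stood apart there through the other entry, as DUNSADRAFT_352_1 had 1522 and 1752 normalised counts in deep water, against 1983 in control 1 and 13046 in control 2. DUNSADRAFT_352_2 itself had 3182 and 3273 in deep water and 1337 and 2279 in control.

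A listed 0 is not a measured absence in these data. Deep water 1, deep water 2 and control 1 held no count from 1 to 9, while control 2 held 28 such values, so that a 0 outside control 2 can stand for up to 9 counts. With 9 counts, the share would be 0.658% for DUNSADRAFT_17599_2 in deep water 2, 0.511% for DUNSADRAFT_4612_2 in control 1 and 0.446% for DUNSADRAFT_1022_2 in control 1. These 3 are all the zeros among the 144 values of the 36 entries, and none of the entries had a count from 1 to 9.

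At 3 further loci the groups were apart at the entry dominant in deep water, and its partner overlapped. DUNSADRAFT_18082 had the closest replicates in deep water, where DUNSADRAFT_18082_2 held 66.4% and 66.1%, against 34.9% and 40.8% in control 1 and 2. It had 2453 and 1885 normalised counts in deep water and 965 and 536 in control, while DUNSADRAFT_18082_1 had 1239 and 969 in deep water and 1802 and 777 in control. DUNSADRAFT_17143 was alike in form. DUNSADRAFT_17143_2 held 68.6% and 70.4% in deep water, against 42.4% and 47.4% in control, and had 2601 and 2682 normalised counts in deep water against 797 and 1319 in control. In normalised counts DUNSADRAFT_17143_1 stayed within a narrow range over all 4 libraries, at 1188 and 1130 in deep water and 1082 and 1465 in control. Scaled by library size alone, its log2 fold change of deep water over control was -1.44, and that of DUNSADRAFT_17143_2 was 0.03. At DUNSADRAFT_6567 the shares of DUNSADRAFT_6567_1 were less far apart, at 65.5% and 54.7% in deep water and 36.9% and 48.6% in control 1 and 2. It had 942 and 923 normalised counts in deep water, against 393 and 632 in control, and DUNSADRAFT_6567_2 had 496 and 766 in deep water, against 671 and 668 in control. These 3 loci and DUNSADRAFT_17599 were the 4 with summed levels in deep water above both controls. Among all 1207 loci this was so for 22.5%.

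The most frequent form, at 9 loci, was a lower level of the control-dominant entry in deep water beside a partner that overlapped between groups. DUNSADRAFT_1022 and DUNSADRAFT_11110 had the largest differences among them. DUNSADRAFT_1022_2 held 56.9% and 61.1% in deep water, against 0% and 29.7% in control 1 and 2. Its own level in deep water, 437 and 368 normalised counts, lay between the controls at 0 and 549. DUNSADRAFT_1022_1 had 331 and 235 normalised counts in deep water, against 1609 and 1298 in control, so that at this locus the larger share came with a lower total. The summed level was 768 and 603 in deep water and 1609 and 1846 in control.

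DUNSADRAFT_11110 differed as much between its controls as between its groups. DUNSADRAFT_11110_1 held 56.7% and 81.8% in deep water, against 0.673% in control 1 and 47.4% in control 2. It had 679 and 607 normalised counts in deep water and 17.6 and 776 in control 1 and 2, and DUNSADRAFT_11110_2 had 519 and 135 in deep water and 2603 and 860.1 in control. Against control 2 alone the difference in share was 21.8 points, and against control 1 alone it was 68.6 points. DUNSADRAFT_5445 had replicates close together in deep water and far apart in control. DUNSADRAFT_5445_2 held 57.2% and 59.3% in deep water, against 37.6% in control 1 and 11.7% in control 2. Its level was 1935 and 1461 normalised counts in deep water and 1891 and 496 in control, while DUNSADRAFT_5445_1 had 1448 and 1004 in deep water and 3138 and 3745 in control.

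DUNSADRAFT_6022, DUNSADRAFT_12934 and DUNSADRAFT_418 had the same form with smaller differences in share. DUNSADRAFT_6022_2 held 65.0% and 79.4% in deep water, against 45.7% and 47.0% in control. Here the controls lay close together and the deep-water libraries apart, with DUNSADRAFT_6022_1 at 919.5 and 752 normalised counts in deep water and 1322 and 1958 in control. DUNSADRAFT_12934_1 held 61.4% and 66.9% in deep water, against 35.3% and 48.3% in control, and its partner DUNSADRAFT_12934_2 had 1535 and 1348 normalised counts in deep water, against 5093 and 1897 in control. DUNSADRAFT_418_1 held 56.3% and 51.9% in deep water, against 34.8% and 32.2% in control. Both of its controls agreed closely, which was not so at most of the 9 loci, and DUNSADRAFT_418_2 had 1124 and 1744 normalised counts in deep water, against 2550 and 4982 in control.

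DUNSADRAFT_11484, DUNSADRAFT_4801 and DUNSADRAFT_16883 complete the 9. DUNSADRAFT_11484_2 held 60.1% and 58.4% in deep water, against 34.2% and 47.9% in control, and DUNSADRAFT_11484_1 had 411 and 523 normalised counts in deep water, against 707 and 812.0 in control. DUNSADRAFT_4801_2 held 67.7% and 51.1% in deep water, against 36.6% and 48.1% in control. This was the narrowest gap of the 18, as 2.96 points lay between deep water 2 and control 2, where the locus had 235 and 474 counts. DUNSADRAFT_16883_2 held 62.3% and 55.5% in deep water, against 48.0% in each control. Its controls differed in level though not in share. DUNSADRAFT_16883_2 had 443 and 337 normalised counts in deep water and 904 and 365.5 in control, and DUNSADRAFT_16883_1 had 268 and 270.4 in deep water and 981 and 395.5 in control.

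The last 3 loci had other forms. DUNSADRAFT_13850_2 held 61.2% and 76.3% in deep water, against 41.6% and 46.4% in control, with levels of both entries that overlapped between groups. DUNSADRAFT_13850_2 had 3118 and 3089 normalised counts in deep water and 1040.1 and 4265 in control. DUNSADRAFT_13850_1 had 1974 and 959 in deep water and 1459 and 4929 in control, so that control 2 was above every deep-water value of both entries and control 1 was not. Both entries also overlapped at DUNSADRAFT_3730, where DUNSADRAFT_3730_1 held 55.1% and 64.8% in deep water, against 42.9% and 49.7% in control. At DUNSADRAFT_14159 both entries were lower in deep water than in both controls. DUNSADRAFT_14159_2 held 53.2% and 56.3% in deep water, against 38.7% and 49.5% in control, and had 174 and 166 normalised counts in deep water, against 276 and 180.1 in control. DUNSADRAFT_14159_1 had 153 and 128 in deep water and 438 and 184 in control.

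**Figure D3:**
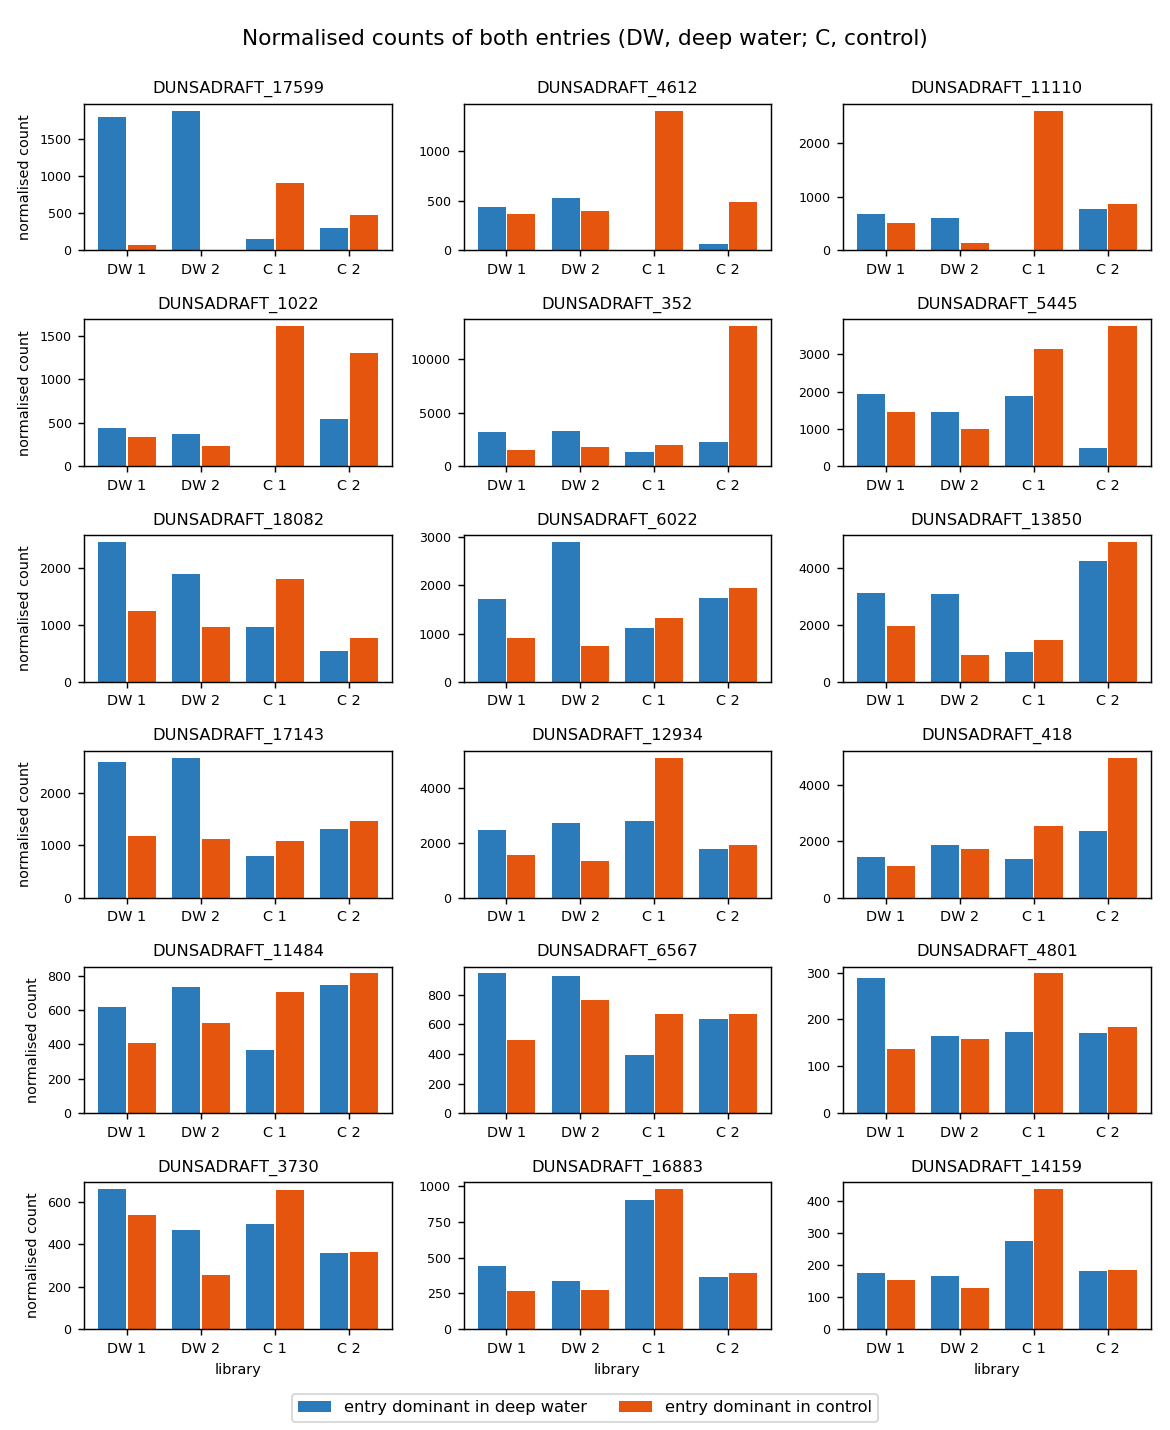
Normalised counts (y axis, a scale for each panel, from 0) of both entries of the 18 loci in the libraries deep water 1 and 2 (DW 1, DW 2) and control 1 and 2 (C 1, C 2). Blue bars are the entry dominant in deep water and orange bars the entry dominant in control. In 13 panels both deep-water orange bars are below both control ones, and in 6 panels both deep-water blue bars are above both control ones.

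DUNSADRAFT_14159 and DUNSADRAFT_16883 lay just inside the margin of 10 points, with differences of 10.7 and 10.9 points, and DUNSADRAFT_3730 followed with 13.6. Just outside it lay DUNSADRAFT_9616, DUNSADRAFT_11566 and DUNSADRAFT_18535, with 9.87, 9.81 and 9.61 points. DUNSADRAFT_9616_2 held 56.1% and 55.5% in deep water, against 44.2% and 47.6% in control, and DUNSADRAFT_11566_3 held 58.8% and 59.2%, against 49.0% and 49.4% in control. DUNSADRAFT_18535_2 held 50.2% and 66.6% in deep water, against 47.6% and 49.9% in control. Replicates at the first 2 of these loci were closer together than at most loci inside the margin.

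Counted over the 18 loci in deposited normalised counts, both deep-water values lay below both controls for 13 of 18 control-dominant entries, where 31.0% of all entries lay so. They lay above both controls for 6 of 18 deep-water-dominant entries, where 30.0% of all entries lay so. Both counts follow in part from how the loci were chosen, and nothing is read from their distance to the background. The deep-water-dominant entry carried the suffix 2 at 12 loci and the suffix 1 at 6. Among the 381 loci with 2 entries whose shares did not overlap, the higher suffix had the larger share in deep water at 202. In the order of the annotation no 2 of the 18 loci were neighbours, the closest being 33 places apart.

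Fitted with edgeR's quasi-likelihood test over all 17858 entries that passed its filter on low counts, no entry had an adjusted p under 0.05, the background being 0%, and so none of the 36 did. The adjusted p of the 36 entries ran from 0.12 to 0.94. At unadjusted p under 0.05 there were 3 deep-water-dominant entries that were higher in deep water, DUNSADRAFT_17599_1, DUNSADRAFT_18082_2 and DUNSADRAFT_17143_2, beside 14.9% of all entries. There were 4 control-dominant entries that were lower, DUNSADRAFT_1022_1, DUNSADRAFT_5445_1, DUNSADRAFT_11110_2 and DUNSADRAFT_418_2, beside 9.58% of all entries. DESeq2's Wald test called 3 deep-water-dominant entries higher and 3 control-dominant entries lower at an adjusted p under 0.05, beside 12.3% and 6.12% of all entries with an adjusted p. With library size alone in edgeR's quasi-likelihood test, 0 of the 36 were called higher and 8 lower, beside 9 higher and 3429 lower of all entries. Without control 1, edgeR's quasi-likelihood test called 9 of the 36 entries and 2923 of all, and without control 2 it called 15 and 6205, each time with the spread of the single control taken from the deep-water libraries. As the loci were chosen on the same libraries, these fits describe the entries and test nothing about them.

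In size, the log2 fold change of deep water over control after TMM scaling was 3.02 ± 0.47 (SE) for DUNSADRAFT_17599_1 and -4.08 ± 1.71 for DUNSADRAFT_17599_2. The value of DUNSADRAFT_17599_2 rests on its listed 0 in deep water 2, since it was -12.56 without deep water 1 and -3.09 without deep water 2. It was 1.56 ± 0.42 for DUNSADRAFT_18082_2 and 1.34 ± 0.40 for DUNSADRAFT_17143_2, with partners at -0.19 and -0.11. For DUNSADRAFT_1022_1 it was -2.33 ± 0.38. The 18 deep-water-dominant entries had a median of 0.56 (-0.67 to 3.86), with 15 above 0. The highest, of DUNSADRAFT_4612_2, was 2.85 without control 1, where it is listed at 0, and 11.79 without control 2. Where a group is left with only a listed 0, as for -12.56 and 11.79, the fitted value depends on the prior count and is no measure of size. The 18 control-dominant entries had a median of -1.17 (-4.08 to -0.05), with all 18 below 0. The median of all entries was -0.13. Both sign counts follow in part from how the loci were chosen. The share of all entries above or below 0 was not counted. After TMM scaling the control-dominant entry had the larger absolute value at 13 loci, a count that depends on the scaling. At DUNSADRAFT_17143 the control-dominant entry had the smaller one after TMM scaling (-0.11 against 1.34). Scaled by library size alone it had the larger one there (-1.44 against 0.03). The signs of the fold changes also depend on the scaling for the deep-water-dominant entries. Scaled by library size alone, which moved the median of all entries to -1.48, 11 of these 18 turned from above to below 0 and 4 were above 0, while the control-dominant entries all stayed below 0. Among all 36 entries the sign was the other one at 7 without control 1, 4 without control 2, 3 without deep water 1 and 1 without deep water 2.

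**Figure D4:**
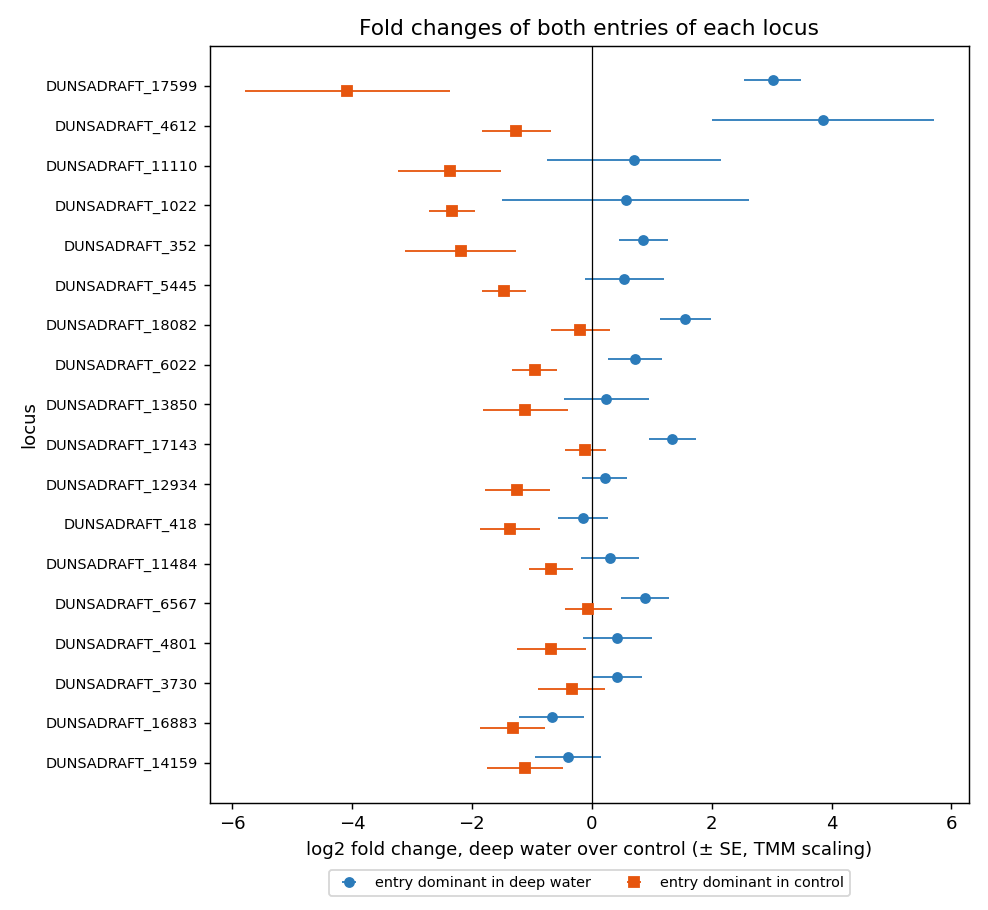
Log2 fold change of deep water over control (x axis, TMM scaling, bars ± SE from edgeR) for both entries of the 18 loci (y axis). Blue circles are the entry dominant in deep water and orange squares the entry dominant in control. All squares lie below 0 and 15 of 18 circles above it, which follows in part from how the loci were chosen. With scaling by library size alone 4 circles would lie above 0.

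Taken as whole loci after TMM scaling, the log2 fold change of the summed counts had a median of -0.28 (-1.32 to 1.04). It was below 0 at 12 loci and above 0 at 6. Over the 1207 loci the median was -0.36, and 63.5% lay below 0. Scaled by library size alone, all 18 lay below 0 (-2.63 to -0.34), with a median of -1.58, and the median of the 1207 loci was -1.69. Summed levels in deep water lay below both controls at 6 loci, where 39.4% of the 1207 loci lay so, and above both at 4. The highest and lowest values were 1.04 ± 0.33 (SE) at DUNSADRAFT_17599 and -1.32 ± 0.34 at DUNSADRAFT_1022, with an adjusted p of 0.134 and 0.105 by edgeR over all locus tags. DUNSADRAFT_17599 was at -0.34 scaled by library size alone. After TMM scaling, the summed level differed by less than its error at several loci. The smallest values in size were 0.04 ± 0.41 at DUNSADRAFT_6022 and 0.05 ± 0.43 at DUNSADRAFT_3730. Scaled by library size alone these 2 values were -1.29 and -1.30. The other such loci were DUNSADRAFT_4801 (-0.13 ± 0.43), DUNSADRAFT_4612 (-0.16 ± 0.51), DUNSADRAFT_11484 (-0.20 ± 0.36) and DUNSADRAFT_13850 (-0.36 ± 0.68). At DUNSADRAFT_6022 and DUNSADRAFT_3730 the shares of the entries, which do not depend on scaling, differed by 25.9 and 13.6 points. These differences were used to choose the loci.

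The size of the difference at single loci rested on particular libraries. Without control 1 it was over 1.5 times smaller at 6 loci, at 21.8 points at DUNSADRAFT_11110, 29.3 at DUNSADRAFT_1022, 11.4 at DUNSADRAFT_11484, 11.5 at DUNSADRAFT_6567, 11.3 at DUNSADRAFT_4801 and 5.30 at DUNSADRAFT_14159. Without control 2 it was larger at DUNSADRAFT_11110, with 68.6 points, and at DUNSADRAFT_14159, with 16.1, and smaller at DUNSADRAFT_5445, with 20.6. Without deep water 1 it was 8.70 points at DUNSADRAFT_4801, and without deep water 2 it was 8.78 at DUNSADRAFT_3730. With all 4 libraries these loci had differences of 45.2 (DUNSADRAFT_11110), 44.1 (DUNSADRAFT_1022), 33.6 (DUNSADRAFT_5445), 18.2 (DUNSADRAFT_11484), 17.3 (DUNSADRAFT_6567), 17.0 (DUNSADRAFT_4801), 13.6 (DUNSADRAFT_3730) and 10.7 points (DUNSADRAFT_14159). Against control 1 alone all 18 loci had at least 10 points, with a median of 26.3, and against control 2 alone 17 did, with a median of 22.0. The number of loci that met the rule was 38 without control 1, 159 without control 2, 64 without deep water 1 and 65 without deep water 2.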

How the data were processed

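RNA sequencing counts of 2 deep-water and 2 control cultures were used. The authors deposited raw counts per entry and a second table of normalised values, a signal that equals the raw count divided by 1 factor per library (relative spread of that factor 9.8e-15). Per the submitters' processing notes, R 4.5.1 and DESeq2 were used. The sources used here name no aligner, counting program or genome build. Shares were computed within each locus and library, with 95% Wilson intervals that cover counting error only, since reads are not independent molecules. The 36 entries were also read from a fit over all entries with edgeR 4.0.16 (R 4.3.3, TMM factors, default filter, group as its single term, Benjamini-Hochberg adjustment at 0.05), with DESeq2 1.42.0 as an alternative. The standard error of a fold change is its size divided by the square root of F. The edgeR fit was tested on simulated counts, with a set spread that was not taken from these data. The gene table of assembly Dunsal1 v. 2 served for protein numbers and order only, because the files name no build. The named loci are all loci that met the rule and the 3 just outside its margin. The members and rules were chosen with earlier results of these data known. Replicate numbers were not taken as pairs, since the labels give no shared culture or day. Depth ranged from 78109607 to 149180358 counts.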

Additional observations from a re-analysis of the deposited data

How the results depend on the processing

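The 18 loci became 80 with no margin on the share. They became 23 with a floor of 100 and 16 with a floor of 500, 12 with a margin of 20 points, and 12, in a setting chosen after seeing the data, when the lowest deep-water share had to exceed the highest control share by 10 points. With a library left out the count ran from 38 (17 of the 18 kept, without control 1) to 159 (all 18 kept, without control 2), with 16 of the 18 kept without either deep-water library. Requiring agreement in fewer libraries admits more loci by construction. The median difference in share ran from 22.0 to 26.8 points with a library left out, against 24.7. The median log2 fold change of summed loci ran from -0.42 to -0.23 with a library left out, against -0.28, and was -1.58 with library size alone. Entries called numbered 0 of 17858 in the edgeR test (4371 at unadjusted p under 0.05), 3438 with library size alone (9 higher, 3429 lower), 3035 with DESeq2's Wald test, 2199 with edgeR's likelihood-ratio test and from 0 to 6205 with a library left out. Among the 36 entries these counts were 0 (7 at unadjusted p under 0.05), 8 (all lower), 6, 4 and from 0 to 15. With the replicate block they stayed at 0 of all entries (3769 at unadjusted p under 0.05) and 0 of the 36 (9). Deviations from the group mean correlated at 0.07 between libraries sharing a number, which the labels do not tie to a culture or day. Signs of the fold changes of the 36 entries differed at 11 with library size alone, 7 without control 1, 4 without control 2, 3 without deep water 1 and 1 without deep water 2, and at none with DESeq2 size factors or the replicate block. The cause of the other differences was not tested. With 2 libraries per group the smallest two-sided exact permutation p is 0.33.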
